A study of Mus musculus with 4 samples.

Results

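The mature dendritic cells of the mouse fracture callus were taken as the cells that held at least 3 UMIs (unique molecular identifiers, each standing for 1 captured transcript) of *Ccr7*, at least 5 of *H2-Ab1*, at least 1 of *Fscn1*, at most 1 of *C1qa* and none of *Cd3e*. The rule found 88 of the 25479 cells that passed the quality filter, 42 and 22 in the control libraries control_4d and control_7d, and 9 and 15 in RA_4d and RA_7d. Each of the 4 libraries held dissociated callus cells of wild-type C57BL/6J mice, 3 months old. The cells were collected at 4 or 7 days postfracture (dpf) after vehicle (control) or repeated injections of K/BxN serum (RA). K/BxN serum carries antibodies that cause arthritis in the recipient mouse and served as a model of rheumatoid arthritis. The calluses of 4 mice per condition were pooled according to the labels and of 3 mice according to the methods, which also give male mice and a fracture of the tibia. Every condition was 1 library, so no difference between conditions has a replicate check, and intervals given here are 95% intervals for counting error only.

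Dendritic cells take up proteins in a tissue, cut them in their lysosomes and show the pieces to T cells on major histocompatibility complex (MHC) molecules. On maturation a dendritic cell stops taking up material, places MHC and costimulatory molecules on its surface, and follows the chemokines CCL19 and CCL21 through the receptor CCR7 toward the draining lymph node. Fascin, the product of *Fscn1*, bundles actin into the long processes of the mature cell, and *H2-Ab1* encodes a chain of MHC class II. NF-kB proteins of the canonical pathway (REL) and of the alternative pathway (RELB) are known to act in this maturation.

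Levels were given as CPM, the UMIs of a gene divided by all UMIs of the cells of a group in 1 library, scaled so that the genes of each group sum to the same total. The 88 members held 1268514 UMIs, between 121943 in RA_4d and 583230 in control_4d, so that 3 UMIs stood for 24.6 CPM in RA_4d and for 5.14 CPM in control_4d. They were set beside 3159 cells with at least 10 UMIs of *H2-Ab1* and none of *Ccr7* (class II cells), and beside 2 groups of those: 562 Ccr7-negative dendritic cells with *Flt3* or *Zbtb46* and little *C1qa*, and 1912 class II macrophages with at least 5 UMIs of *C1qa*. The libraries stood close in depth, with a median of 16093.5 to 17631.5 UMIs per kept cell, and any pair of them shared 5 to 15 cell barcodes. Since *Ccr7* and *Fscn1* chose the members, every difference between members and the other cells is a description of what the rule picked and carries no test.

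Part of the members also held transcripts of another lineage. By criteria set after the values were seen, 18 of the 88 held at least 20 UMIs of the mesenchymal list, at least 10 of the endothelial list or at least 5 of the B cell genes, 4 of the 42 members of control_4d, 8 of 22 in control_7d, 1 of 9 in RA_4d and 5 of 15 in RA_7d. Their median was 30411 UMIs against 11026 in the other 70, and Scrublet, a program that scores doublets, marked 9 of them and none of the other 70. *Col1a1*, a collagen gene of bone-forming cells, stood at 1265 CPM at 4 dpf and 6533 CPM at 7 dpf in control, and at 49.2 and 3129 CPM in RA, highest at 7 dpf in both conditions. The same criteria marked 3.35%, 14.7%, 5.92% and 15.2% of the Ccr7-negative dendritic cells (control_4d, control_7d, RA_4d, RA_7d), also more at 7 than at 4 dpf. The 18 held 94.96% of the mesenchymal-list UMIs of the members in control_4d, 98.4% in control_7d and 97.9% in RA_7d, but 8.33% in RA_4d, where the 1 such member held few of them. They held more UMIs than all other members of control_7d (307367 UMIs with them, 124577 without) and of RA_7d (255974 and 119009). Whether they were doublets was not tested. Unless said otherwise levels are those of all 88 members, and values without the 18 follow for the genes and lists that results turn on. The 18 were left out of the members only, and the groups set beside them kept their cells with another lineage.

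The rule used the 2 label genes, and their levels describe the choice. *Ccr7* stood at 1859, 1575, 2477 and 1086 CPM (control_4d, control_7d, RA_4d, RA_7d, an order that holds for every set of 4 levels given here), with a median of 26.5, 22.5, 36 and 19 UMIs per cell. *Fscn1* stood at 809, 820, 1042 and 359 CPM in the same order, against 15.8 CPM over the Ccr7-negative dendritic cells and 13.1 CPM over the macrophages. RA_7d was the lowest library for both genes, and was so too without the members with another lineage, at 2205, 2625, 2616 and 1941 CPM of *Ccr7* and 915, 1389, 1092 and 630 CPM of *Fscn1*. In the GRCm38 build of the files (GENCODE annotation) *Ccr7* lies at chr11:99144196-99155077 on the minus strand and *Fscn1* at chr5:142960343-142973185 on the plus strand. Of the 5 conditions, that on *Fscn1* left out the most cells at its edge, since 140 further cells passed every other condition with no UMI of *Fscn1*. Those 140 cells held 34.8 CPM of *Cacnb3* and 585 CPM of *Lyz2*, while the 12 members with exactly 1 UMI of *Fscn1* held 120.5 and 57.1 CPM. The 140 held more *Ccl22* (216.4 against 120.5 CPM) and more *Il4i1* (80.5 against 25.4 CPM) than the 12. They held less *Ccr7* (967.5 against 1249 CPM) and less *Relb* (179.5 against 234.6 CPM). Only 3 cells were left out by having 2 UMIs of *Ccr7*, and 7 members had exactly 3. No cell that otherwise passed was left out by a single UMI of *Cd3e*.

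Mature dendritic cells made up a larger share of the cells in control_4d than in any other library. They were 0.768% of the kept cells in control_4d (95% exact Clopper-Pearson interval 0.554 to 1.04), 0.287% in control_7d (0.180 to 0.434), 0.219% in RA_4d (0.100 to 0.415) and 0.182% in RA_7d (0.102 to 0.301). The interval of control_4d did not overlap the others, and those of the other 3 libraries overlapped each other. At 4 dpf the RA share was 0.285 times that of control (0.122 to 0.594), and at 7 dpf 0.636 times (0.307 to 1.28). Without the 18 members that held another lineage the shares were 0.695%, 0.182%, 0.195% and 0.122%, again highest in control_4d. Without the condition on *Fscn1* they were 1.75%, 0.586%, 0.900% and 0.608%, with control_4d again the highest. The 7-dpf libraries then stood close, with RA_7d just above control_7d. With the condition RA_7d was the lower of them, by a ratio whose interval spanned 1. RA_4d stood below control_4d as before.

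The order of the libraries depended on what the mature cells were counted against. Of all dendritic cells, mature and Ccr7-negative together, mature cells were 16.7% (12.3 to 21.9) in control_4d, 17.7% (11.5 to 25.6) in control_7d, 5.59% (2.59 to 10.3) in RA_4d and 13.2% (7.56 to 20.8) in RA_7d. On this scale the interval of RA_4d lay below those of both control libraries, with a ratio to control_4d of 0.334 (0.143 to 0.696), while the ratio at 7 dpf was 0.742 (0.358 to 1.50). The Ccr7-negative dendritic cells themselves were 3.82% and 3.70% of the kept cells in the 4-dpf libraries and 1.33% and 1.20% in the 7-dpf libraries (control and RA in turn), close between RA and control at each time. Of the cells with a UMI of *Ptprc*, which encodes the leukocyte surface protein CD45, the members were 1.13%, 0.472%, 0.302% and 0.632%. Here RA_7d (0.346 to 1.06) lay above control_7d (0.265 to 0.778), with overlapping intervals and a ratio of 1.34 (0.599 to 2.97). This count took in 15 of the 22 members of control_7d and 14 of the 15 of RA_7d, since the others held no *Ptprc* UMI. Cells lost in dissociation and cells that were not in the callus cannot be told apart in these shares.

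**Figure D1:**
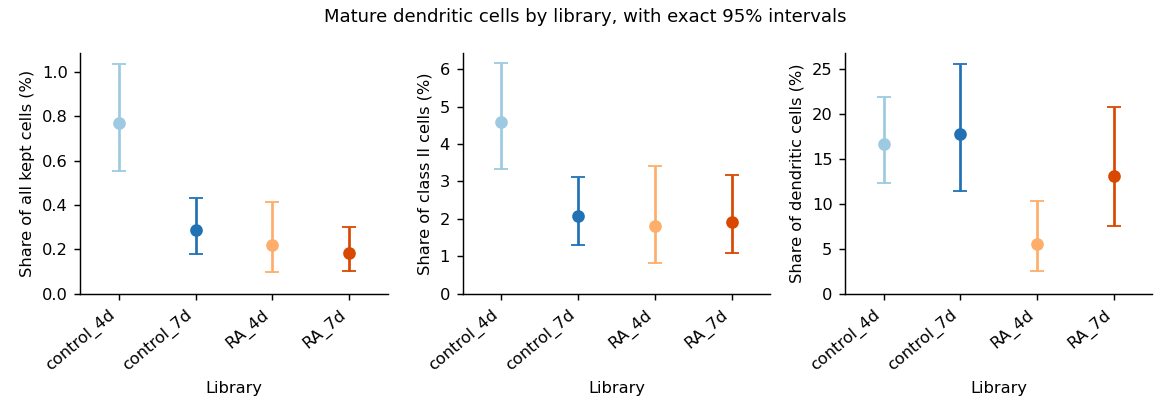
Mature dendritic cells as a percentage of the kept cells of the class II cells and mature members together, and of all dendritic cells (vertical axes, left to right) in the 4 libraries, as points with 95% exact binomial intervals for counting error. Control_4d stands highest among the kept cells at 0.768%, and RA_4d stands lowest among the dendritic cells at 5.59%.

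Against the Ccr7-negative dendritic cells, 174 of 9903 compared genes (1.76%) were at least 2-fold higher in the mature cells in all 4 libraries and 140 (1.41%) were at least 2-fold lower. With TMM scaling, which sets the total by a trimmed mean of gene ratios, the split was 138 higher and 198 lower and the median over all genes was -0.192. Against all class II cells 236 of 13355 genes (1.77%) were higher and 421 (3.15%) lower, and against the macrophages 304 (2.48%) and 524 (4.27%) of 12275. The median of the log2 difference over all genes was -0.118 against the dendritic cells and -0.136 against the class II cells. Without the RA_7d library the number lower than in dendritic cells was 339, which held all 140. A call then had fewer libraries to pass, so a rise follows in part from the weaker rule. Without the members with another lineage the number lower was 362. Log2 differences were computed with 10 CPM added to both levels, which understates the difference of genes near 0.

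Of the genes of maturation and migration, a list that left out *Ccr7* and *Fscn1*, 19 of 24 compared were higher than in Ccr7-negative dendritic cells, none was lower, and the median log2 difference was 2.35. *Samsn1*, which encodes an adaptor protein of immune cells, stood at 1425, 1113, 1788 and 816 CPM, against 153, 104, 132 and 67.7 CPM in Ccr7-negative dendritic cells of the same libraries. *Cacnb3*, which encodes a calcium channel subunit, stood at 267, 192, 385 and 113 CPM against 0, 7.22, 3.03 and 1.22 CPM. *Il4i1*, which encodes a secreted amino acid oxidase, stood at 252, 182, 295 and 43.0 CPM, with 197 CPM (173 to 223) over all members and 5.64 CPM (4.18 to 7.43) over the other dendritic cells. The ranges of the 2 groups did not overlap for any of these genes, and RA_7d was the lowest of the members' libraries for all 3, with or without the members with another lineage. Without them *Samsn1* stood at 1728, 2095, 1920.5 and 1479 CPM, *Cacnb3* at 306, 289, 414 and 227 CPM and *Il4i1* at 306, 337, 317 and 92.4 CPM. *Tmem123*, which encodes a membrane protein of dendritic cells, differed by 3.50 on the log2 scale against the other dendritic cells. *Socs2*, an inhibitor of cytokine signalling, differed by 2.96. *Bcl2l14* reached 754 CPM in RA_4d, where 1 cell held 55.4% of its UMIs, and still 396 CPM without that cell, against 54.7 to 71.6 CPM in the other libraries. Without the members with another lineage the list gave 18 of 23 higher and a median of 2.66.

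The costimulatory and checkpoint genes differed in both directions, with 5 of 15 compared genes higher than in Ccr7-negative dendritic cells, 2 lower and a median of 1.02. *Cd274*, which encodes the inhibitory ligand PD-L1, stood at 660, 446, 927 and 406 CPM in the members against 101, 72.9, 89.3 and 95.7 CPM. *Cd200*, the ligand of an inhibitory receptor on myeloid cells, stood at 281, 211, 328 and 125 CPM, or 237 CPM (211 to 266) over all members, against 11.9 CPM (9.78 to 14.5). Both genes were higher in every library. *Cd200* was lowest in RA_7d with and without the members with another lineage (321, 329, 317 and 185 CPM without), while *Cd274* was then lowest in control_7d, at 767, 674, 995 and 714 CPM. Without them 6 of 15 genes of the list were higher and 2 lower. *Pdcd1lg2*, which encodes PD-L2, differed by 2.11 and *Cd83*, a surface protein of mature dendritic cells, by 1.64. *Cd80*, a ligand of the T cell receptor CD28, was even across the libraries at 252, 234, 254 and 246 CPM against 100, 73.5, 82.1 and 72.5 CPM. *Havcr2*, which encodes the receptor TIM-3, and *Vsir*, which encodes the checkpoint protein VISTA, were the 2 lower genes, at 20.5 and 18.9 CPM over all members against 137 and 61.3 CPM.

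Of the cytokine genes 2 of 15 were higher than in the other dendritic cells, none was lower, and the median was 0.17. Over the 70 members without another lineage 3 were higher and 1 lower. *Il12b*, which encodes the p40 chain of IL-12 and IL-23, was among the higher genes and varied by library, at 214, 517, 525 and 23.4 CPM against 0, 0.657, 0 and 0.610 CPM. Its UMIs lay in 18 of the 88 members, or 20.5%, while 0.356% of the Ccr7-negative dendritic cells held one. With every cell thinned to 4000 UMIs the shares were 15.9% and 0.178%. The *Il12b* level was carried by a minority of the members, and RA_7d was the lowest library, also without the members with another lineage (237, 843, 564 and 50.4 CPM). *Il15ra*, which encodes the chain that presents IL-15, stood at 30.9, 32.5, 65.6 and 50.8 CPM against 0.978 to 2.65 CPM, low but higher in each library. *Il1b*, which encodes an inflammatory cytokine, was called in neither comparison with dendritic cells or class II cells, at 847, 1022, 722 and 1246 CPM against 897, 832, 1035 and 896 CPM.

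**Figure D2:**
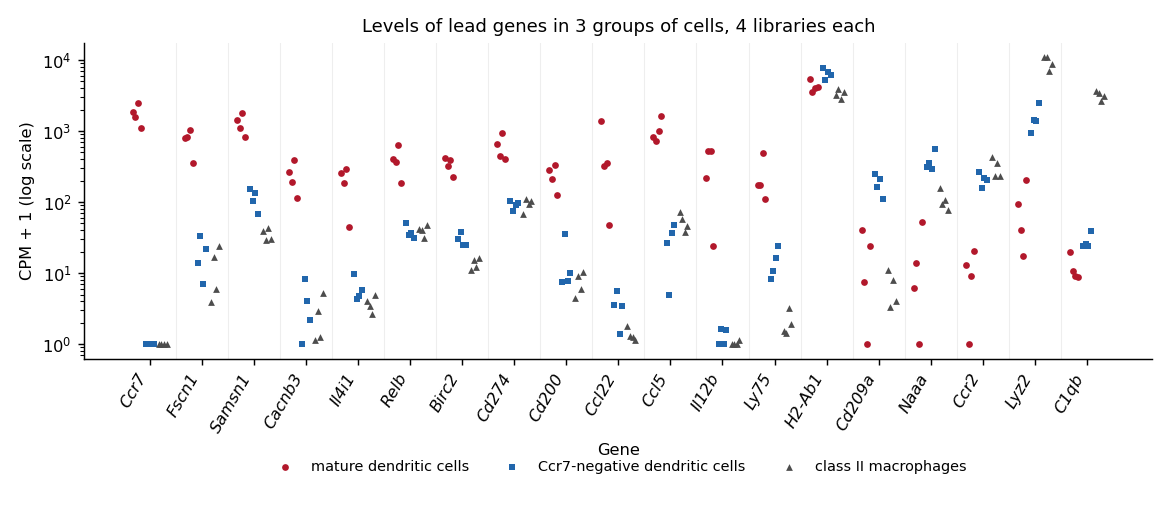
Levels of genes named in the text (horizontal axis) in CPM with 1 CPM added (vertical axis, log scale) in the mature dendritic cells (circles), the Ccr7-negative dendritic cells (squares) and the class II macrophages (triangles), 1 point per library. All 4 circles of *Samsn1*, *Cacnb3* and *Relb* lie above the squares, and all 4 circles of *Naaa*, *Ccr2* and *Lyz2* lie below them.

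Of the chemokine genes, *Ccl22* and *Ccl5* were higher than in both class II cells and dendritic cells. *Ccl22*, the chemokine that draws CCR4-bearing T cells, stood at 1396, 322, 353 and 46.9 CPM in the members against 2.61, 4.60, 0.378 and 2.44 CPM in the other dendritic cells, highest in control_4d and lowest in RA_7d. *Ccl5*, a chemokine that draws T cells and monocytes, stood at 811, 716, 984 and 1629 CPM against 25.8, 3.94, 35.2 and 46.3 CPM. *Ccl22* lies at chr8:94745590-94751699 on the plus strand and *Ccl5* at chr11:83525778-83530518 on the minus strand. Both were higher in all 4 libraries, and their order among the libraries was not the same. Over the 70 members without another lineage *Ccl22* stood at 1667, 265, 379 and 92.4 CPM and *Ccl5* at 1034, 1373, 1057 and 3504 CPM, so RA_7d was again the lowest library for *Ccl22* and the highest for *Ccl5*. Against class II cells 2 of 19 compared chemokine genes were higher and 10 lower, with a median of -2.85, and against dendritic cells 3 of 16 were higher, the third being *Cxcl16*, and 1 was lower (3 and 2 without the members with another lineage). The lower gene was *Ccl4*, a chemokine gene of activated myeloid cells, at 4.73 CPM over all members against 100.3 CPM. *Ccl17*, which shares the receptor CCR4 with *Ccl22*, was called in neither comparison, at 153, 16.3, 0 and 0 CPM, and is named after its values were seen.

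*Ccl22* and *Ccl5* were uneven among the members. At least 10 UMIs of *Ccl22* were found in 19 of the 88 cells and at least 10 of *Ccl5* in 31, while 3 cells held both at that level and 41 held neither. Those 3 cells held 398 of the 968 *Ccl22* UMIs, and the 29 cells with any UMI of both held 746. Of the *Ccl22* cells, 15 of 19 were in control_4d and none in RA_7d, and 1 control_4d cell with 292 UMIs held 35.9% of that library's *Ccl22*. Any UMI of *Ccl22* was found in 54.5% of the members (43.2% thinned to 4000 UMIs). It was found in 0.105% of 7593 cells with at least 5 UMIs of *Prrx1* and no *Ptprc*. Those are mesenchymal cells that should lack it, and their median depth was 26531 UMIs. Any UMI of *Ccl5* was found in 60.2% of the members (51.1% thinned) and in 2.28% of those mesenchymal cells (0.764% thinned). Both shares were higher in the members than in the mesenchymal cells, although a member's median depth of 11410.5 UMIs was the lower of the 2.

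**Figure D3:**
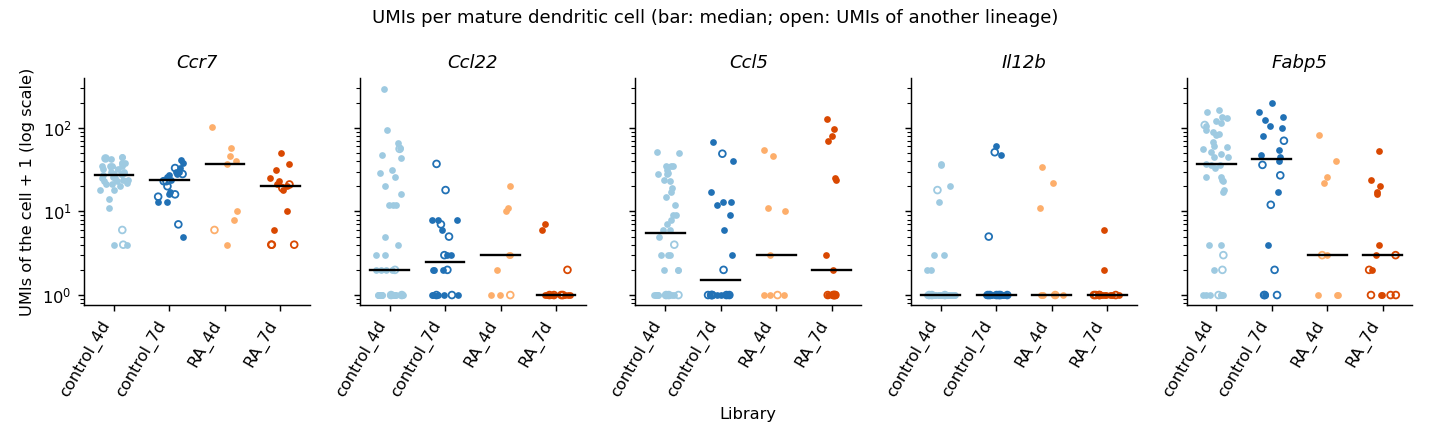
UMIs per cell with 1 UMI added (vertical axis, log scale) of *Ccr7*, *Ccl22*, *Ccl5*, *Il12b* and *Fabp5* in each of the 88 mature dendritic cells by library (horizontal axis), with bars at the medians and open circles for the 18 members with another lineage. *Ccr7* medians run from 19 to 36 UMIs, most cells of *Il12b* lie at 0, and *Fabp5* medians are 35.5 and 41.5 UMIs in the control libraries and 2 in both RA libraries.

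Of 10 compared chemokine receptor genes other than *Ccr7*, 1 was lower than in Ccr7-negative dendritic cells and none was higher. The lower gene, *Ccr2*, whose product guides monocytes into inflamed tissue, stood at 12.0, 0, 8.20 and 19.5 CPM in the members and at 266, 154, 219 and 201 CPM in Ccr7-negative dendritic cells, with no overlap. *Cxcr4*, the receptor of CXCL12, was called in neither comparison, at 90.9, 81.3, 148 and 62.5 CPM.

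Of the NF-kB pathway genes 7 of 24 compared were higher than in Ccr7-negative dendritic cells, none was lower, and the median was 0.90. Once the members with another lineage were left out 11 of 24 were higher and the median was 1.16. *Relb*, the transcription factor of the alternative pathway, stood at 398, 364, 631 and 184 CPM against 50.2, 33.5, 35.2 and 29.9 CPM. *Rel*, which encodes c-Rel, stood at 1747, 1197, 2124 and 1590 CPM against 567, 445, 408 and 372 CPM. Each library of the members lay above every library of the other dendritic cells for both genes. In the 70 members without another lineage *Relb* stood at 418, 586, 678 and 311 CPM and *Rel* at 1909, 2055, 2194 and 2706 CPM, so the order of the libraries changed for *Rel*. *Birc2*, which encodes a ubiquitin ligase that restrains the alternative pathway, differed by 3.12 and *Birc3* by 1.97. *Traf3*, whose product acts with them, differed by 2.11 and *Traf1*, a target gene of the pathway, by 1.92. *Tnfrsf11a*, which encodes the receptor RANK and was the other higher gene, differed by 1.89. *Nfkbia*, which encodes the inhibitor IkBa, was called against the class II cells at 1.50 and not against the dendritic cells at 1.45. *Map3k14*, which encodes the kinase NIK, was likewise called at 2.32 and not called at 1.08.

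The kB consensus, the DNA motif that NF-kB dimers bind, was searched on both strands of 300-base promoter windows, from 250 bases before to 50 bases after each start site in the RefSeq table (build GRCm38.p6). It was found in 21 of 184 windows (11.4%) of the genes higher than in Ccr7-negative dendritic cells, of which 139 of 174 matched the table by symbol. It was found in 7 of 141 windows (4.96%) of the lower genes, of which 111 of 140 matched, in 5.27% of the windows of all compared genes and in 4.51% of all 32851 windows. These shares are counts without a test, and a match is not evidence of binding. The windows of 4 higher genes are shown because they hold the motif, which is in capitals (overlapping matches run together), in a gene of the pathway (*Rel*, *Traf3*), a checkpoint ligand (*Pdcd1lg2*) or a cytokine receptor (*Il2ra*). Each runs 5′ to 3′ on the strand of the gene.
Rel promoter, chr11:23770920-23771219, minus strand: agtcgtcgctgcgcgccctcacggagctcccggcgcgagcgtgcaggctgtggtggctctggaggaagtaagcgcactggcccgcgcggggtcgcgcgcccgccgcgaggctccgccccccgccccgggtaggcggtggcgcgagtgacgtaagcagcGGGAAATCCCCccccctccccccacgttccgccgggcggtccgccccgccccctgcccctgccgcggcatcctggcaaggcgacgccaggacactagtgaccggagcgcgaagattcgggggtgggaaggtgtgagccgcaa
Traf3 promoter, chr12:111166120-111166419, plus strand: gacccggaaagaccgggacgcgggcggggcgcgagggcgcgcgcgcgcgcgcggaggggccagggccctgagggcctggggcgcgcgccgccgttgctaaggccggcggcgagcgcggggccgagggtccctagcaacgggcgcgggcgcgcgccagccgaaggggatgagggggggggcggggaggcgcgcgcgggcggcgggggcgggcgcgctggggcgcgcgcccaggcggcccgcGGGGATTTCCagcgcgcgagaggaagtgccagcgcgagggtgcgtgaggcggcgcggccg
Pdcd1lg2 promoter, chr19:29410669-29410968, plus strand: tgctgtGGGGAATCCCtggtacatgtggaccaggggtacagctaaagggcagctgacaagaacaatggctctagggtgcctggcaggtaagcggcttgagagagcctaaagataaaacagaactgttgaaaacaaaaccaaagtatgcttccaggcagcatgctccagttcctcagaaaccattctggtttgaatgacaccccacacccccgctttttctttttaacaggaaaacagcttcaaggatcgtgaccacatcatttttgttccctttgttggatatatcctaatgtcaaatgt
Il2ra promoter, chr2:11642542-11642841, plus strand: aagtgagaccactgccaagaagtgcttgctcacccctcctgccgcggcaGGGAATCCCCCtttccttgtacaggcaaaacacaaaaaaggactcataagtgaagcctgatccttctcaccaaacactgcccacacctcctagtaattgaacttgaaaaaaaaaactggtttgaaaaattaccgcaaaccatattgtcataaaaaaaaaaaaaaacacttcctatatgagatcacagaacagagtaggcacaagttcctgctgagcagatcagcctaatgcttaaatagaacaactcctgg

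Of the MHC class I genes 3 of 22 were higher than in Ccr7-negative dendritic cells and none was lower, with a median of 0.14 (5 higher and a median of 0.29 without the members with another lineage). *H2-Q7*, a nonclassical class I gene whose near-identical relatives share reads, stood at 357, 342, 426 and 277 CPM, or 344 CPM (312 to 378) over all members against 46.9 CPM (42.5 to 51.6). *Nlrc5*, the activator of class I genes, stood at 156, 117, 172 and 137 CPM, or 144 CPM (124 to 167) against 14.5 CPM (12.1 to 17.3). Both were higher in each library. Of the class II pathway genes 1 of 15 was higher and 3 were lower, with a median of -0.22, and without the members with another lineage 2 were higher and 2 lower, with a median of -0.02. *H2-Ab1*, which the rule used, stood at 5319, 3589, 4059 and 4141 CPM and *Cd74*, the invariant chain gene named after its values were seen, at 11299, 7610, 10374 and 7739 CPM, neither called against any of the 3 groups. The higher gene was *H2-Eb2*, at 199, 137, 180 and 54.7 CPM and a difference of 3.19. The lower genes were *Ciita*, the activator of class II transcription, with a difference of -1.57, *H2-DMb1*, and *March1*, whose product removes class II molecules from the surface. *March1* had 1 UMI in all members, 0.788 CPM (0.0200 to 4.39), against 57.7 CPM (52.8 to 62.9).

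Conventional dendritic cells fall into type 1, which take up dead cells and present to CD8 T cells, and type 2, which present mainly to CD4 T cells. Of the genes of type 1 cells (cDC1) 5 of 11 were lower than in Ccr7-negative dendritic cells, none was higher, and the median was -1.80. Of the genes of type 2 cells (cDC2) 6 of 12 were lower, none was higher, and the median was -1.82. In the 70 members without another lineage 6 and 4 genes of these lists were lower. *Naaa*, an acid amidase gene of cDC1, stood at 5.14, 13.0, 0 and 50.8 CPM against 307, 349, 287 and 552 CPM. *Cd209a*, a lectin gene of cDC2, stood at 39.4, 6.51, 0 and 23.4 CPM against 251, 164, 213 and 108 CPM. *Itgam*, which encodes CD11b, stood at 17.1, 9.76, 16.4 and 19.5 CPM against 107, 84.7, 90.1 and 60.3 CPM. All 3 were lower in every library without overlap. The cDC1 transcription factor genes *Irf8* and *Batf3* were called in neither comparison, with differences of -0.11 and -0.08. *Id2*, which encodes an inhibitor of basic helix-loop-helix factors, was higher at 569, 686, 1025 and 1031 CPM against 257, 255, 313 and 496 CPM.

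Genes that dendritic cells share were read in every library. *Flt3*, the receptor of the growth factor of dendritic cells, stood at 257, 192, 303 and 180 CPM, and *Zbtb46*, a transcription factor gene of conventional dendritic cells, at 158, 97.6, 180 and 148 CPM. Having *Flt3* or *Zbtb46* was a condition for the Ccr7-negative dendritic cells and not for the members. Against the class II cells, which were not chosen on them, the differences were 2.52 and 2.82. *Itgax*, which encodes CD11c, was lower at 34.3, 6.51, 0 and 23.4 CPM against 118, 88.6, 80.2 and 59.1 CPM. Without the members with another lineage *Itgax* stood at 33.0, 0, 0 and 42.0 CPM and was no longer called. No gene of plasmacytoid dendritic cells was called, with 4 of them compared, but 1 of the 4 was higher without the members with another lineage.

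Immature dendritic cells hold many receptors for uptake. Of the receptors for uptake and for microbial patterns 7 of 22 were lower than in Ccr7-negative dendritic cells and 1 was higher, with a median of -1.28 (6 lower and 1 higher without the members with another lineage), and 19 of 28 were lower than in the class II cells. The higher gene was *Ly75*, which encodes the endocytic receptor DEC-205, at 173, 176, 492 and 109 CPM against 7.18, 9.85, 15.5 and 23.2 CPM. *Mrc1*, which encodes the mannose receptor, stood at 1.71, 6.51, 8.20 and 0 CPM against 106, 51.9, 94.6 and 96.9 CPM. The 2 receptors lay on opposite sides in each library. Of the lysosome genes 2 of 20 were lower than in dendritic cells, *Psap* and *Hexa* with differences of -1.99 and -1.28, 1 was higher, and 10 of 20 were lower than in the class II cells. In the 70 members without another lineage 6 of 20 were lower than in dendritic cells, with a median of -1.20. *Ctss*, the protease that trims the invariant chain, was lower than in the class II cells by -1.81 and not called against the dendritic cells at -0.88.

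Macrophage genes were low in the members, which the rule partly fixed through *C1qa*. Of 24 compared genes of that list 21 were lower than in the class II cells, none was higher, and the median was -4.13. Against dendritic cells 8 of 22 were lower, and 10 without the members with another lineage. *Lyz2*, the lysozyme gene of myeloid cells, stood at 92.6, 39.0, 16.4 and 203 CPM, against 937, 1426, 1373 and 2496 CPM in Ccr7-negative dendritic cells. Of the T cell, B cell and NK cell genes compared (3, 4 and 5) none was called against the class II cells. The mesenchymal list had a median of 1.43 against the dendritic cells with no gene called, and a median of -2.51 with 4 of 8 lower once the members with another lineage were left out. The second value follows in part from the choice of cells. That filter counted these genes in the members and was not applied to the Ccr7-negative dendritic cells.

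**Figure D4:**
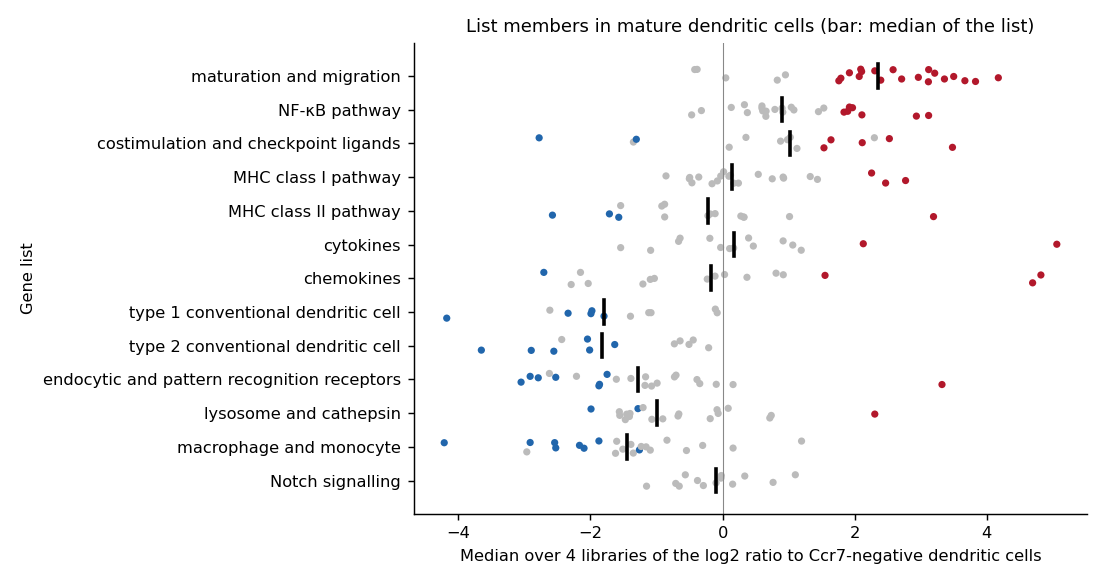
Median over the 4 libraries of the log2 difference between mature and Ccr7-negative dendritic cells (horizontal axis) for the compared genes of 13 lists (vertical axis), 1 point per gene, red where higher and blue where lower by at least 2-fold in all 4 libraries, with a bar at the median of each list. The bar of maturation and migration lies at 2.35, that of the NF-kB pathway at 0.90, and those of the type 1 and type 2 lists at -1.80 and -1.82.

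Of the survival genes 3 of 16 were higher, among them *Bcl2a1b* and *Bcl2a1d*, near-identical relatives of BCL-2 between which reads can be split, at 1053 CPM (997 to 1111) against 170 CPM (161 to 178) for *Bcl2a1b*. *Fas*, which encodes a death receptor, was also higher, at 89.2, 45.5, 90.2 and 50.8 CPM against 2.61, 2.63, 3.03 and 6.71 CPM. No cell cycle gene of 20 was called and the median was -0.90; without the members with another lineage 4 of 20 were lower. Of 13 compared genes of Notch signalling, the pathway through RBPJ that the study followed in progenitors, none was called, and the median was -0.10 beside -0.118 over all genes. When the members with another lineage were left out none was called and the median was -0.72 beside -0.359 over all genes. *Rbpj* itself stood at 163, 172, 73.8 and 176 CPM in the members against 228, 230, 216 and 326 CPM, below the other dendritic cells in each library, by less than 2-fold in 3 of them. *Notch2* stood at 56.6, 94.3, 49.2 and 54.7 CPM, or 64.6 CPM (51.4 to 80.2) against 132 CPM (124 to 139).

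Outside the lists the genes with the largest differences against class II cells included *Tbc1d4*, which encodes a regulator of vesicle traffic to the surface, at 1876, 1103, 1820.5 and 746 CPM against 144, 104, 154 and 144 CPM in Ccr7-negative dendritic cells. *Mreg*, which encodes an organelle transport protein, stood at 295, 215, 615 and 164 CPM against 1.22 to 17.0 CPM. *Nr4a3*, which encodes a nuclear receptor induced by activation, stood at 1358, 924, 1402 and 1266 CPM, or 1239 CPM (1178 to 1301) over all members against 262 CPM (252 to 273). These genes were higher in each library without overlap. *Stat4*, the signal transducer of IL-12, differed by 2.62, *Ramp3*, a partner of peptide receptors, by 2.46, *Il2ra*, the alpha chain of the IL-2 receptor, by 3.38 and *Sema7a*, a membrane-anchored semaphorin, by 2.10.

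The members varied with their own *Ccr7* count. Of the 70 without another lineage, 8 held 3 to 9 UMIs of *Ccr7* and 62 held at least 10. The 8 held 22.8 CPM of *Cacnb3*, 0 of *Ly75*, 148 CPM of *Relb* and 22.8 CPM of *Ccl22* (2.76 to 82.3), while the 62 held 341, 275, 503 and 1164 CPM (1087 to 1245 for *Ccl22*). *Cd209a* ran the other way, at 171 CPM in the 8 and 1.38 CPM in the 62. These levels stood for 15 UMIs and 1 UMI, and only 5 of all 88 members held any UMI of *Cd209a*. *Lyz2* and *Il4i1* differed less, at 68.4 CPM (25.1 to 149) against 106 CPM (83.9 to 133) and at 228 CPM (139 to 352) against 287 CPM (250 to 329), with overlapping intervals. The 8 were 5 of the 18 such members of RA callus and 3 of the 52 of control callus, and the part of this in the differences between RA and control was not tested. Control_4d gave 36 of the 62 and 2 of the 8, and the part of the library in this split was not tested. Of the 843 *Ccl22* UMIs of the 62, 1 control_4d cell held 292, a spread between cells that the interval does not cover. This split and its genes were chosen after the values were seen.

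Within the mature cells, 18 of 3851 compared genes (0.467%) were at least 2-fold higher in RA than in control at both times and 78 (2.03%) were lower. Without the members with another lineage 15 of 2358 genes (0.636%) were higher and 32 (1.36%) lower, and 8 and 10 genes were called both with and without them. *Epsti1*, an interferon-induced gene, stood at 219 and 120 CPM in the control libraries (4 and 7 dpf) and at 1099 and 543 CPM in the RA libraries. The RA level was 5.01 times that of control at 4 dpf (3.90 to 6.43) and 4.51 times at 7 dpf (3.12 to 6.67), and 1 cell held 38.8% of the RA_4d UMIs. *AW112010*, a long noncoding RNA gene of activated immune cells, stood at 147, 16.3, 1509 and 141 CPM, with ratios of 10.2 (7.88 to 13.4) and 8.65 (3.38 to 28.2), and 1 cell held 68.5% of the RA_4d UMIs. Both genes were higher in RA at each time, and for *AW112010* most of the RA_4d level came from that cell, without which it was 560 CPM. *Gpcpd1*, which encodes a phosphodiesterase of glycerophospholipids, stood at 110, 107, 295 and 270 CPM, and *Ccrl2*, the gene of a receptor that binds chemerin, at 42.9, 0, 123 and 66.4 CPM. *Gpd2*, the mitochondrial glycerol phosphate dehydrogenase, stood at 101, 68.3, 295 and 266 CPM. *Maml3*, a coactivator of Notch signalling, stood at 18.9, 45.5, 90.2 and 219 CPM. *Gpd2* and *Maml3* were not among the 8 genes called with and without the members with another lineage, and without them *Maml3* stood at 17.6, 0, 52.9 and 33.6 CPM. The RA levels came from 24 cells and the control levels from 64.

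Lower in RA, *Ccl22* had a ratio to control of 0.253 (0.181 to 0.343) at 4 dpf and 0.146 (0.0728 to 0.266) at 7 dpf. In control_4d 1 cell held 292 of its 814 UMIs, and without that cell the log2 difference at 4 dpf was -1.35. The intervals do not cover such a spread between cells. Without the members with another lineage, 1 of which held 36 of the 99 *Ccl22* UMIs of control_7d, the ratios were 0.227 (0.163 to 0.309) and 0.349 (0.159 to 0.708), both still below 1. *Fabp5*, which encodes a fatty acid binding protein and was chosen after its values were seen, stood at 3551, 4021, 1402 and 523 CPM, with log2 differences of -1.33 and -2.92. The median of *Fabp5* per cell was 35.5 and 41.5 UMIs in the control libraries and 2 in both RA libraries, and at least 10 UMIs were found in 30 of 42, 16 of 22, 4 of 9 and 5 of 15 cells. Over the 70 members without another lineage it stood at 4312, 8782, 1489 and 1101 CPM and the medians were 40, 66.5, 11.5 and 9 UMIs, the control libraries again above the RA libraries. In Ccr7-negative dendritic cells *Fabp5* stood at 506, 196, 109 and 116 CPM, so it was also higher in the mature cells of each library. *Pcyt1a*, a phosphatidylcholine synthesis gene also chosen after its values were seen, stood at 581, 478, 254 and 46.9 CPM. The named genes *Cthrc1*, *Thbs2*, *Aspn* and *Col5a2* were lower too, and they are matrix genes whose direction turned at 1 time when the members with another lineage were left out. *Hba-a2*, a haemoglobin gene of red cells, stood at 425, 65.1, 16.4 and 15.6 CPM in the members and at 112, 47.3, 4.54 and 59.7 CPM in the other dendritic cells of the same libraries. In control_4d 1 cell held 230 of its 248 UMIs, and without that cell it stood there at 31.6 CPM, below the other dendritic cells. The log2 difference of RA to control at 4 dpf was then -0.66, under 2-fold.

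**Figure D5:**
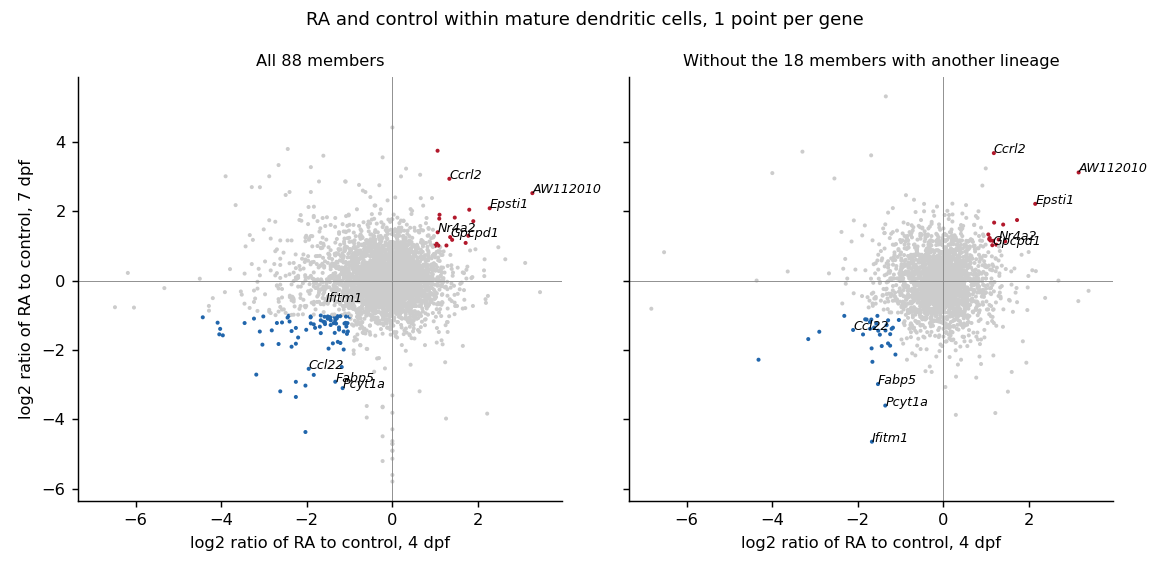
Log2 difference of RA to control in the mature dendritic cells at 4 dpf (horizontal axes) and 7 dpf (vertical axes), 1 point per gene with at least 50 UMIs, for all 88 members (left) and for the 70 without another lineage (right), red where at least 2-fold higher and blue where at least 2-fold lower at both times. On the right *Epsti1* lies at 2.15 and 2.21 and *AW112010* at 3.16 and 3.12, while *Fabp5* lies at -1.53 and -2.98 and *Ccl22* at -2.11 and -1.42.

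From 4 to 7 dpf, 200 of 3851 genes (5.19%) were higher in both conditions and 30 (0.779%) were lower, and without the members with another lineage 11 of 2358 (0.466%) and 24 (1.02%). The named genes that were higher included *Mgp*, *Itm2a*, *Peg3*, *Mest* and *Mfap4*, genes of mesenchymal cells, and of the 200 the 3 collagen genes *Col1a1*, *Col1a2* and *Col3a1* alone were called both with and without those members. Lower at 7 dpf were *Irf7*, the interferon regulatory factor, at 130, 19.5, 57.4 and 7.81 CPM, and *Cxcl10*, the interferon-induced chemokine, at 89.2, 9.76, 57.4 and 0 CPM. For *Cxcl10* 1 cell held 38 of the 52 UMIs of control_4d, without which the log2 difference of 7 to 4 dpf in control was -0.82, under 2-fold, and in RA_4d all 7 UMIs of *Cxcl10* lay in 1 cell. For *Irf7* 1 cell held 32 of the 76 UMIs of control_4d, and all 7 of RA_4d lay in 1 cell. Without the RA_4d cell that held the UMIs, the log2 difference of 7 to 4 dpf in RA was 0.83 for *Irf7* and 0 for *Cxcl10*. *Ccl22* was lower at 7 dpf as well, with ratios of 0.231 in control and 0.133 in RA (0.159 and 0.244 without the members with another lineage). These 3 genes and *AW112010* were among 9 called lower both with and without the members with another lineage. In each the 7-dpf libraries lay below the 4-dpf library of their condition. For *Irf7* and *Cxcl10* in RA this order rested on 1 cell of RA_4d. *Ccr7* and *Fscn1* were not called in either comparison within the members.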

How the data were processed

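The 4 pooled callus libraries were sequenced as single cells (10x Genomics). According to the methods and the labels, the authors aligned reads to mm10 with Cell Ranger 7.0.1 and deposited filtered matrices holding raw counts of UMIs by gene and barcode, 34038 barcodes in all. Cells with 4000 to 50000 UMIs, 2000 to 7000 genes and at most 8% mitochondrial UMIs were kept here, which is the filter of the study. UMI counts were summed per library and group of cells and scaled to CPM. Genes with at least 50 UMIs over the groups compared were compared, as log2 ratios with a pseudocount of 10 CPM, and called higher or lower at 2-fold in all 4 libraries, or, within the members, at both times or in both conditions. No test was run, because each condition is 1 library. Intervals are exact (Clopper-Pearson for shares, Poisson for levels, conditional binomial for ratios) at 95%. A count of 3 UMIs was taken as the floor. Doublets were scored with Scrublet in scanpy 1.11.5 and left in, except in the alternatives. Python 3.11.15, numpy 2.4.6, scipy 1.17.1, pandas 2.3.3 and matplotlib 3.10.9 were used, and the calling step was tested on simulated data.

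The members and the gene lists were chosen with earlier results of these data known. Genes were named by rule: the genes of the rule and gates, in each list up to 8 with the largest median ratio to the class II cells, outside the lists the 15 highest and 10 lowest called with at least 50 CPM, the 8 largest rises and falls within the members, and all Notch genes. Genes outside the rule are *Cd74*, *Ccl17*, *Cxcl16*, *Tnfrsf11a*, *H2-DMb1*, *Col1a2*, *Col3a1*, *Fabp5* and *Pcyt1a*, named after their values were seen, as members of a list or of a small count. Alternatives changed the pseudocount, the UMI minimum, the scaling (TMM), the weight of the cells, the *Ccr7* threshold, the cell filter, depth, doublets and denominators. Some results are not reported here.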

Additional observations from a re-analysis of the deposited data

How the results depend on the processing

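The mature cells were few, 9 in RA_4d and 15 in RA_7d, and 3 UMIs, the floor, stood for 24.6 and 11.7 CPM there. No paired analysis was possible because each condition had 1 library. Thinning to 4000 UMIs gave a control_4d share of 0.53%, under a changed rule with lower thresholds of *Ccr7* and *H2-Ab1* and no UMI of *C1qa* allowed. Alternatives on the *Fscn1* condition, on dendritic cells as denominator, on members with another lineage and on single cells with most UMIs of a gene were chosen after seeing the data. Without the *Fscn1* condition the shares were 1.75%, 0.586%, 0.900% and 0.608% (control_4d, control_7d, RA_4d, RA_7d). Among *Ptprc*-positive cells the RA share was 1.34 times that of control at 7 dpf (0.599 to 2.97). Among dendritic cells the ratio of 7 to 4 dpf turned to 1.06 in control (0.603 to 1.82) and to 2.35 in RA (0.965 to 6.10). In RA it was also above 1 among *Ptprc*-positive cells, at 2.09 (0.819 to 5.76), and class II cells, at 1.06 (0.435 to 2.75). All of these intervals span 1.

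A pseudocount of 1 CPM gave 356 genes higher and 944 lower than in class II cells, 334 lower than in dendritic cells and 986 lower than in macrophages. Without the members with another lineage, and with the comparison cells unchanged, the genes lower were 714, 362 and 792. Leaving out 1 library in turn gave 240 to 314 higher and 472 to 572 lower genes against class II cells, 171 to 240 and 163 to 339 against dendritic cells, and 301 to 420 and 576 to 677 against macrophages. The 339 came without RA_7d. With 1 library left out a call had fewer libraries to pass, so higher counts follow in part from the weaker rule.

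For RA against control the genes higher were 33 with a pseudocount of 1 CPM, 60 with a minimum of 10 UMIs, 11 with TMM, 32 with the mean of the cells and 28 without Scrublet doublets. The genes lower were 125, 184 and 49 with the first 2 settings and the mean, 140 with at least 5 UMIs of *Ccr7* and 32 without the members with another lineage. For 7 against 4 dpf the genes higher were 464 with 10 UMIs, 25 without doublets and 11 without the members with another lineage, and the genes lower were 50 with 1 CPM, 69 with 10 UMIs and 49 with TMM. TMM moved the median over all genes from -0.127 to -0.237 for RA against control at 4 dpf and from -0.051 to -0.182 for 7 against 4 dpf in control. The causes of these shifts were not tested.

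Without the members with another lineage these log2 differences turned: *Plcb4* -0.66 at 4 dpf, *Plac8* -0.85, *Cthrc1* 0.97, *Thbs2* 0.57 and *Aspn* 0.57 at 7 dpf, and *Col5a2* 0.18 at 4 dpf for RA against control. For 7 against 4 dpf *Gpx3* turned to -0.032 in RA and *Aqp1* to 0.85 in control and 0.88 in RA. *Plac8* was -0.73 with at least 5 UMIs of *Ccr7*, and *Mecom* turned to 0.61 in control without doublets.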

Other observations

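Genes chosen after their values were seen also differed between RA and control without the members with another lineage. *Ifitm1*, *Klrd1* and *Eno3* were not among the 10 genes called lower both with and without those members. *Nr4a2* was among the 8 called higher in both settings. Over all 88 members 1 cell held 80 of the 101 *Ifitm1* UMIs of RA_7d. The levels that follow are those without the members with another lineage. *Ifitm1*, which encodes an interferon-induced membrane protein, stood at 666, 1292, 203 and 42.0 CPM, both RA libraries below both control libraries. *Klrd1*, which encodes the lectin CD94, stood at 240, 466, 79.3 and 151 CPM, and *Eno3*, which encodes the muscle form of enolase, at 262, 345, 26.4 and 118 CPM, again with both RA libraries below both control libraries. *Nr4a2*, which encodes a nuclear receptor related to *Nr4a3*, ran the other way at 224, 169, 564 and 395 CPM. *Ccl5* stood at 1034, 1373, 1057 and 3504 CPM in the same cells, with RA_7d the highest library and log2 differences of RA to control of 0.03 at 4 dpf and 1.35 at 7 dpf.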
